A study of Mus musculus with 4 samples.

Results

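Myc, Jun and Sgk1 are 3 of the 4878 genes in a table of normalised counts from mouse embryonic fibroblasts (MEFs), which are primary cells of connective tissue type. The 3 genes were taken by their symbols, and they were chosen by their normalised counts, which were already known to be higher in the 2 knockdown than in the 2 control libraries. Their own differences are therefore given as a description, with no test. Immediate early genes are switched on by growth factors and stress from factors already present in the cell, with no need for new protein, and their mRNAs are usually short-lived. Myc encodes a transcription factor that pairs with MAX and drives cell growth and ribosome production. Jun encodes a subunit of AP-1, a dimeric factor that acts in the response to growth signals and stress. Sgk1 encodes a serum- and glucocorticoid-regulated kinase related to AKT, which acts downstream of PI3-kinase and mTORC2.

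Cells of passages 5 to 8 were transfected with RNAiMAX and an siRNA. It was a negative control in 2 libraries and targeted eIF1A in 2 others, whose label adds X+18 without explaining it. eIF1A is an initiation factor of translation that acts in the search for the start codon. Bulk MARS-seq, which counts the 3′ ends of polyadenylated RNA, was made from each sample. The labels give neither the time after transfection nor the cultures of origin. If replicates shared a culture, p-values measure technical spread only, the spread between these samples. In bulk samples, a change in all cells and a change in a part of them cannot be told apart. Eif1a and Eif1ax, the genes for eIF1A, were not analysed here, so the labels were not checked against the targeted mRNA.

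Recovered reads per library came to between 2152331 and 2595625 over the genes of the table. Of 18 fibroblast markers 7 were present, and 5 of the 7 fell in knockdown libraries (Col6a1, S100a4, Col5a1, Vim and Sparc), while Fn1 and Prrx1 did not pass. The calls of Vim and Sparc were each lost when 1 of 2 libraries was left out. These were control replicate 1 or knockdown replicate 1 for Vim, and control replicate 2 or knockdown replicate 2 for Sparc. Both calls were also lost at equal library totals, under quantile normalisation and without the mean-variance trend. The next values are sums over the 7 fibroblast markers. Their summed normalised counts, of all 7, were 27657 to 31260 in controls and 14892 to 16448 in knockdowns. Of 40 markers of 6 other cell types 2 were present, the neural markers Nes and Map2, whose sum was 238 to 245 in controls and 132 to 151 in knockdowns. The 34 markers of the non-neural types were not analysed here. Every gene of the table had at least 1 read in each library, so absence of a marker from it does not show lack of expression. The part of cell make-up in the results below was not tested. Across the 4605 genes tested, 15.9% were called higher in the knockdown and 21.6% lower, 37.5% in all (limma, Benjamini-Hochberg adjusted p under 0.05), and these are the backgrounds against which counts below are read. The median log2 difference of all genes tested was −0.0091. At equal library totals it was 0.34, with 1300 genes called higher and 603 lower in place of 733 and 996. All differences are of log2(normalised count + 1), knockdown minus control, and all ± values are SDs of n = 2 libraries.

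The 3 genes lie on different chromosomes. On mm10, Myc spans chromosome 15, 61985391 to 61990374, on the plus strand, Jun spans chromosome 4, 95049034 to 95052222, on the minus strand, and Sgk1 spans chromosome 10, 21882184 to 21999903, on the plus strand. Jun has a single exon, and an antisense gene, Junos, has an exon that overlaps Jun on the opposite strand, outside the last 1000 bases of Jun. No exon of another gene lies within the last 1000 bases of any of the 3, where 3′ reads fall, and no annotated pseudogene carries their symbols. The longest annotated 3′ UTRs hold 2 copies of the AU-rich pentamer ATTTA in Myc, 4 in Jun and 3 in Sgk1. That is 4.29, 3.24 and 2.79 copies per 1000 bases, against a median of 1.15 over 4593 tested genes with a 3′ UTR. A density at least as high was found in 8.62%, 15.3% and 19.7% of those genes. AU-rich pentamers are known as elements that shorten the life of immediate early mRNAs, and a match is a description of the sequence only.

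The promoters of Jun and Sgk1 were matched to RefSeq windows (GRCm38.p6) that run from 250 bases before to 50 after a start site, 1 window for Jun and 6 for Sgk1. Both strands were searched for the CRE TGACGTCA, the AP-1 type site TGACATCA, the AP-1 site TGANTCA, the E-box CACGTG that MYC binds, the amino acid response element TGATGNAA, the TATA box TATAAA and the CArG box. The first 4 windows below are shown because they hold the matches found. The last pair are examples of ATTTA copies in the 3′ UTRs. Capitals mark the match or the ATTTA copies.
Jun, AP-1 type site, chr4:95052249-95052278, minus strand: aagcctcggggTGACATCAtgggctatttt
Sgk1, TATA box, chr10:21992183-21992212, plus strand: atttcctttagaTATAAAgtgggactcaga
Sgk1, E-box, chr10:21993640-21993669, plus strand: tcctCACGTGttcttggcatggctaggatt
Sgk1, TATA box, chr10:21994643-21994672, plus strand: cggcgcagggctTATAAAgccggtcgcgcg
Jun, 3′ UTR, chr4:95049207-95049236, minus strand: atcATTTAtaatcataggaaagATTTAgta
Sgk1, 3′ UTR, chr10:21999423-21999452, plus strand: atttggaagataaATTTAtgtgtagactgt

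The Jun match begins 45 bases before the start site, where JUN-containing dimers are known to bind the gene's own promoter. In Sgk1, TATAAA began 28 and 11 bases before different start sites, and CACGTG began 246 bases before another. TGACATCA was in 3.62% of all 32851 promoter windows, CACGTG in 7.15% and TATAAA in 13.6%. These shares are per window, and with 6 windows searched a match somewhere in Sgk1 is more likely than they say. The other motifs were not found in these windows, at background shares of 1.79% for TGACGTCA, 7.81% for TGANTCA, 3.97% for TGATGNAA and 1.63% for the CArG box. No motif matched in windows of both genes.

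Myc had 29.53 and 30.03 normalised counts in controls 1 and 2 and 119 and 259 in knockdowns 1 and 2. Both knockdown libraries lay above both controls, as they did for Jun and Sgk1 and for 32.4% of all genes tested (67.8% had no overlap in either direction). The 2 knockdown libraries of Myc lay far apart. The means were 29.8 ± 0.356 and 189 ± 99.6, a log2 difference of 2.52 with a standard error of 0.34. These values rest on 30, 37, 147 and 382 reads. Exact Poisson 95% intervals, which cover counting error only, were 100.3 to 139 in knockdown 1 and 234 to 287 in knockdown 2, and did not overlap. The ratio of the higher to the lower knockdown library was 2.19, larger than in 99.5% of the 200 genes of nearest mean, whose median ratio was 1.18. Without knockdown replicate 1 the log2 difference of Myc was 3.08, and without knockdown replicate 2 it was 1.96.

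Jun had 27.6 and 30.03 normalised counts in the controls and 132 and 162 in the knockdowns, from 28, 37, 163 and 238 reads. Its libraries were close within each group. The means were 28.8 ± 1.75 and 147 ± 21.3, a log2 difference of 2.30 with a standard error of 0.30. Sgk1 had 27.6 and 21.9 normalised counts in the controls and 116 and 113 in the knockdowns, from 28, 27, 144 and 167 reads. The knockdown libraries of Sgk1 were almost level, with a ratio of 1.02. Its means were 24.7 ± 3.99 and 115 ± 1.98, a log2 difference of 2.18 with a standard error of 0.32. A larger positive difference was found in 0.413% of all genes tested for Myc, 0.738% for Jun and 0.934% for Sgk1. The lowest knockdown library exceeded the highest control 3.95-fold for Myc, 4.38-fold for Jun and 4.12-fold for Sgk1. In the order Myc, Jun, Sgk1, the log2 differences of neighbours lay apart by less than their standard errors.

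**Figure D1:**
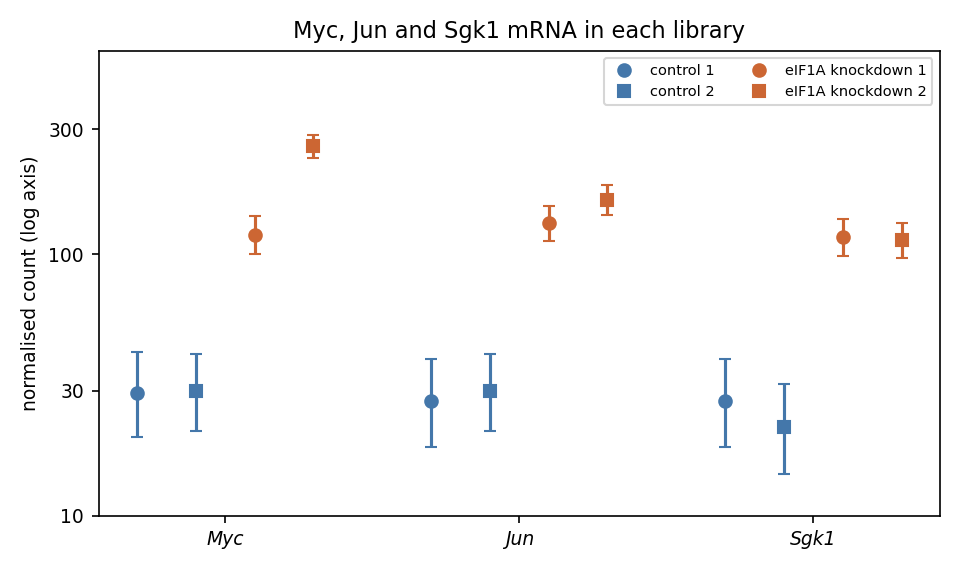
Normalised counts (log axis) of Myc, Jun and Sgk1 in the 2 control and 2 eIF1A knockdown libraries, with exact 95% Poisson intervals as bars. All control libraries lie between 21.9 and 30.03 and all knockdown libraries between 113 and 259; for Myc alone the intervals of the knockdown libraries do not overlap.

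Other immediate early genes went both ways. Of 88 genes on the immediate early list 36 were present. Leaving out Myc, Jun and Sgk1, 30 of them were tested, 11 rose (36.7%, against 15.9% of all genes) and 7 fell (23.3%, against 21.6%), with 12 that did not pass. The median log2 difference of the 30 was 0.48. This list too was written with earlier results of these data known, so the counts are not independent evidence of a direction. Fos, Junb, Egr2, Ier2 and Dusp1, well-known members of this class, were not analysed here.

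Ifrd1, a transcriptional coregulator, rose from 15.7 and 25.2 to 99.3 and 151 normalised counts, a log2 difference of 2.56 (limma, adjusted p = 1.68e-05). Atf3, a stress-induced bZIP repressor, rose from 31.5 and 58.4 to 158 and 269, a log2 difference of 2.24 (adjusted p = 3.37e-05). Cyr61, a secreted matricellular protein of the serum response, rose from 146 and 138 to 609 and 650, which is 4.41-fold. In these 3 genes the knockdown libraries were all above the controls, and their log2 differences of 2.14 to 2.56 stood beside 2.18 to 2.52 for Sgk1, Jun and Myc. Ccl2, a chemokine, rose 4.41-fold, to 73.0 ± 5.23, and Thbs1, a matricellular protein, rose 4.004-fold, to 94.6 ± 39.1. Hes1, a repressor of the Notch pathway, rose 2.33-fold. The other rises were those of the kinase gene Plk2 (2.63-fold), the small GTPase gene Rhob (1.85-fold), Cebpb (1.74-fold, and 3.43-fold with the GC trend removed), Klf10 (1.71-fold) and Klf6 (2.65-fold), the last from a mean of 7.68.

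Among the genes that fell, Id1, an inhibitor of bHLH factors, went from 1143 and 944 to 400 and 477 normalised counts (2.37-fold lower, adjusted p = 1.70e-04). Per1, a circadian repressor, fell 2.90-fold (4.51-fold without knockdown replicate 1, 1.86-fold without knockdown replicate 2), Bhlhe40, a bHLH repressor, fell 2.76-fold, and Jund, the AP-1 subunit that is expressed steadily, fell 2.10-fold. Socs3, a feedback inhibitor of cytokine signalling, fell 1.79-fold, Klf2 1.68-fold and Nfkbia 1.46-fold. Egr1, the zinc finger factor most often used as a marker of this class, had 462 and 298 in controls and 572 and 545 in knockdowns. Its groups did not overlap, but it did not pass (limma, adjusted p = 0.0551). It passed under 6 other settings, among them edgeR on the recovered reads (adjusted p = 0.0414) and without control replicate 1 (adjusted p = 0.00305). Srf, the factor that binds CArG boxes, had a log2 difference of −0.48 and Fosl2 of 0.35, and neither passed. Without knockdown replicate 2 only 6 members of the list were called higher and 3 lower, the calls of Plk2, Rhob, Cebpb, Klf10, Klf6, Bhlhe40, Socs3, Klf2 and Nfkbia being lost. The calls of Jund, Klf2, Socs3, Klf6, Klf10 and Nfkbia were lost when a trend on the GC content of transcripts was removed, and the log2 difference of Jund was then −0.097.

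**Figure D2:**
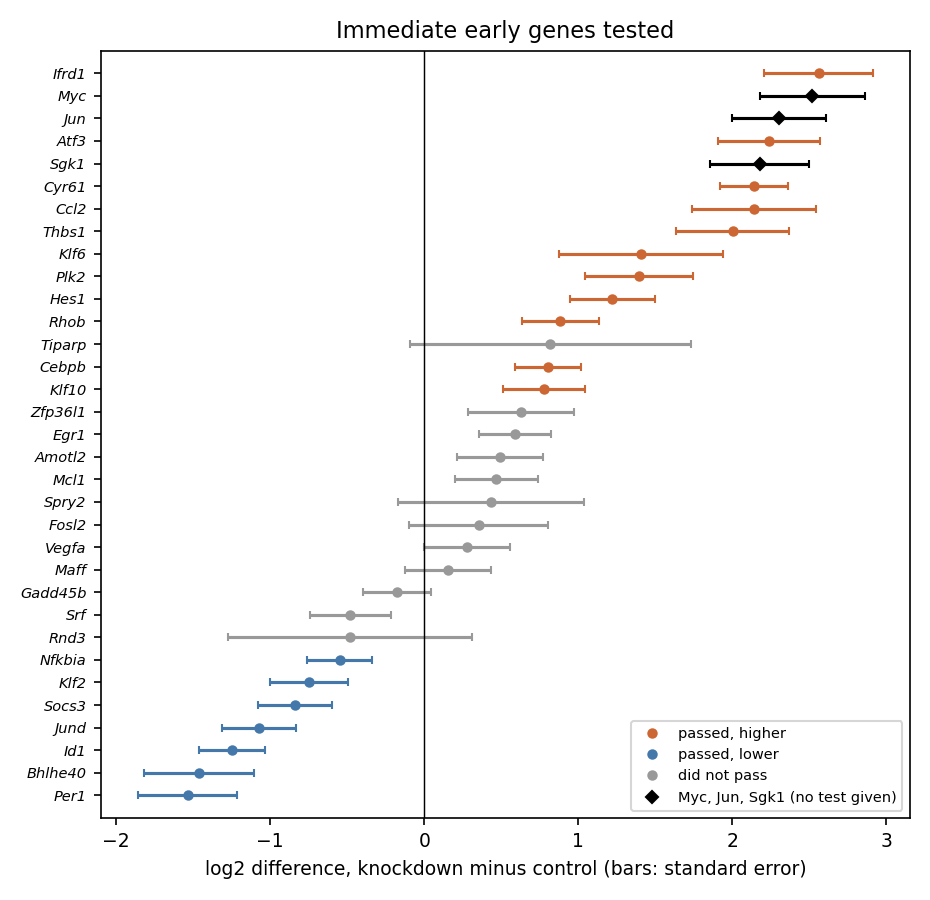
Log2 difference between knockdown and control libraries of the 33 tested immediate early genes, with standard errors as bars. Myc, Jun and Sgk1 (black) lie among the highest with Ifrd1, Atf3 and Cyr61, and 7 members that fell lie at the other end, with Per1 and Bhlhe40 lowest.

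MYC works in a network in which MXD proteins and MNT compete with it for MAX and repress the genes that it activates. The antagonists that were tested fell. Mxd4 had 427 and 635 normalised counts in controls and 185 and 152 in knockdowns, with no overlap (3.09-fold lower, limma, adjusted p = 3.84e-05). Mnt went from 131 and 116 to 56.5 and 52.3, also without overlap (2.24-fold lower, adjusted p = 0.00311). The call of Mnt was lost with the GC trend removed (adjusted p = 0.150). Mlx, the MAX-like partner, had a log2 difference of 0.088 and did not pass. Max, Mycn and Mycl were not analysed here.

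Cofactors of MYC were mixed. Kat2a, a histone acetyltransferase that MYC recruits, rose from 129 ± 0.655 to 271 ± 26.0 (2.08-fold). Kat5, the TIP60 acetyltransferase, fell 1.67-fold, with the call lost under 6 other settings. Trrap, Wdr5 and Ep400 had log2 differences of 0.046, 0.073 and 0.043 and did not pass. Ruvbl1, a helicase that binds MYC, was at 0.52 and passed only at equal totals, under quantile normalisation and without control replicate 2. Of the 9 network genes tested besides Myc, 1 rose (11.1%, against 15.9% of all genes), 3 fell (33.3%, against 21.6%) and 5 did not pass. Their median was 0.046, and it was below 0 without control replicate 1, control replicate 2 or knockdown replicate 2.

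Genes known to act on MYC mRNA or protein were also mixed. Of 14 tested, 2 rose (14.3%, against 15.9% of all genes), 4 fell (28.6%, against 21.6%) and 8 did not pass. The median of the list was −0.32, but above 0 at equal totals, under quantile normalisation and with the GC trend removed. Igf2bp1, an RNA-binding protein that stabilises the Myc mRNA, rose from 128 and 105 to 232 and 288 normalised counts (2.23-fold, adjusted p = 0.00118). Cnbp, a nucleic acid binding protein that acts on the Myc promoter, rose 2.15-fold. The call was lost without control replicate 1, without the mean-variance trend and with the GC trend removed, where the rise was 1.53-fold (limma, adjusted p = 0.11). Plk1, a mitotic kinase, fell 1.97-fold, and Trpc4ap, an adaptor of a ubiquitin ligase for MYC, fell 1.76-fold. The call of Trpc4ap was lost at equal totals and under quantile normalisation (limma, adjusted p = 0.0734 and 0.109).

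Genes that MYC is known to activate were mostly higher in knockdown libraries. Of 52 tested, 32 rose (61.5%, against 15.9% of all genes), 3 fell (5.77%, against 21.6%) and 17 did not pass, with a median of 0.92. Many of them act in ribosome assembly, whose rise in these libraries was known when the list was written, so the count is not independent evidence of a direction. With the GC trend removed the folds of Srm and Rrp9 below were 8.34 and 5.86. Srm, spermidine synthase, rose from 571 and 458 to 3000 and 2479 normalised counts, a log2 difference of 2.41 (limma, adjusted p = 8.98e-08). Rrp12, a pre-ribosome export factor, went from 19.7 and 21.1 to 125 and 161. Rrp9, a U3 snoRNP protein, went from 145 and 140 to 505 and 569 (3.74-fold). The 3 members that fell were Ldha, Mcm5 and Sord, of which Mcm5 and Sord were named with their values known. Ldha, lactate dehydrogenase A, fell 6.30-fold and Mcm5, a replicative helicase subunit, 2.01-fold. Sord, sorbitol dehydrogenase, had a log2 difference of −0.85. Its call was lost without control replicate 2 or knockdown replicate 1, at equal totals (limma, adjusted p = 0.110) and without the mean-variance trend. Without knockdown replicate 2, 20 members were called higher. Knockdown 2, the library with more Myc, was above knockdown 1 in 33 of the 52 (63.5%), against 52.4% of all genes tested. Other lists lay on both sides of this share. Genes acting on MYC had 78.6%, AP-1 and related bZIP genes 75% and AU-rich element factors 71.4%. Genes that MYC represses and immediate early genes each had 66.7%, and kinases and factors that switch on immediate early genes 63.6%. Lower shares were 62.5% of AP-1 targets, 58.3% of the JNK list and 57.1% of the glucocorticoid list. The MYC network had 55.6% and SGK1 signalling 53.3%.

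**Figure D3:**
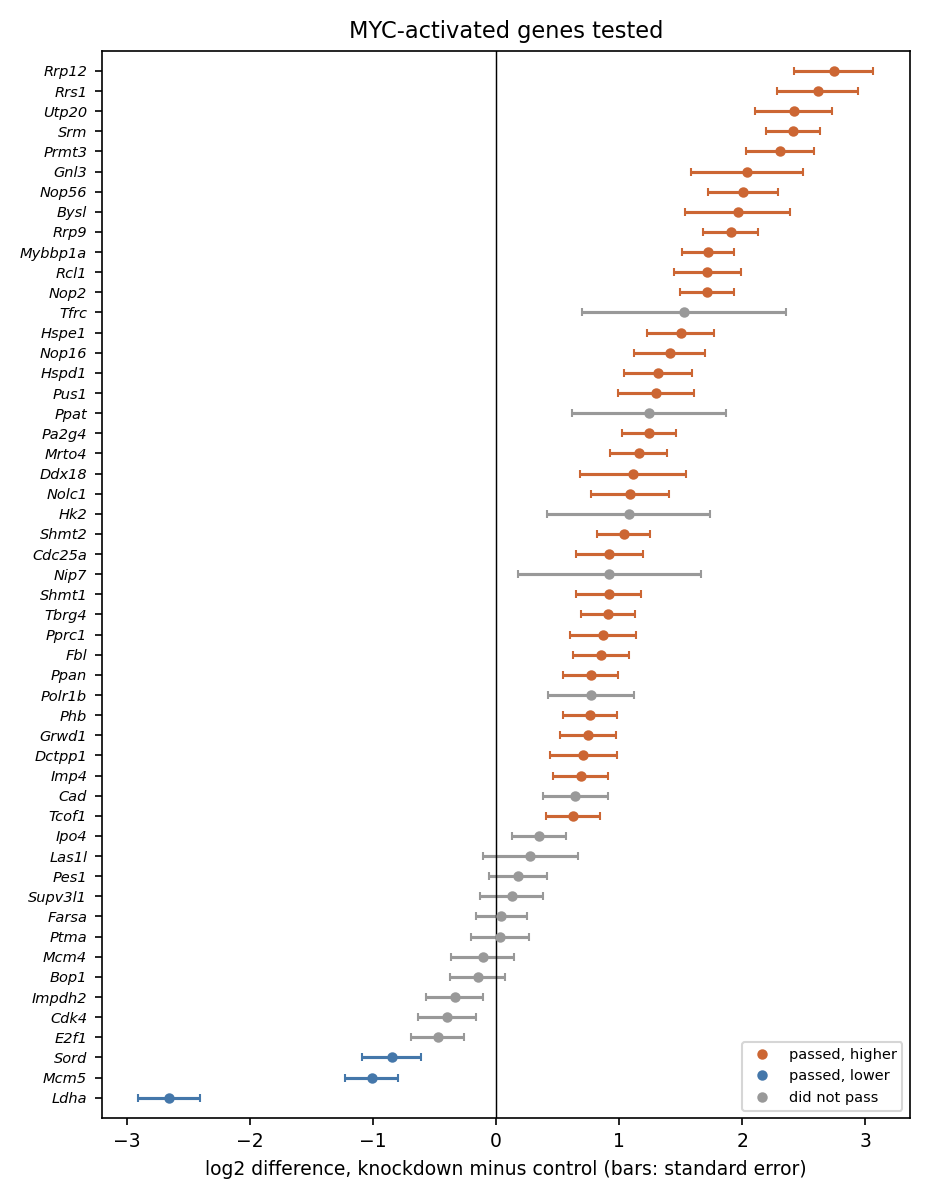
Log2 difference between knockdown and control libraries of 52 tested genes that MYC is known to activate, with standard errors as bars. The 32 that passed as higher reach 2.74 for Rrp12, and 3 passed as lower, with Ldha at −2.65.

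Genes that MYC is known to repress split. Of 9 tested, 2 rose (22.2%, against 15.9% of all genes), 4 fell (44.4%, against 21.6%) and 3 did not pass. Only 2 were called lower without either knockdown replicate, at equal totals, without the mean-variance trend and with the GC trend removed. The median was −0.48, but −0.26 without control replicate 2 and 0.035 with the GC trend removed. Ndrg2 went from 261 and 278 to 16.1 and 7.47 normalised counts, a log2 difference of −4.49 (adjusted p = 2.7e-08). Cdkn2b, which encodes the CDK inhibitor p15, rose from 123 and 144 to 273 and 284 (2.09-fold). Thbs1, given above, was the other member that rose.

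Besides Jun, 8 AP-1 and related bZIP genes were tested, of which 3 rose (37.5%, against 15.9% of all genes) and 1 fell (12.5%, against 21.6%). The median was 0.26, and 0.17 to 0.35 with 1 library left out. Atf3, Jund, Fosl2 and Maff were also counted on the immediate early list. In the normalised counts, Jun and its paralogue Jund went opposite ways, while the paralogue Junb was not analysed here. Jund, given above as lower, had 1869 and 1210 normalised counts in controls and 842 and 607 in knockdowns. Jun was higher in both knockdown libraries. The contrast depended on the setting, since the call of Jund was lost without the mean-variance trend (limma, adjusted p = 0.0558). After correction for GC content the log2 difference of Jund was only −0.097, which did not pass. Jdp2, a JUN dimerisation partner that represses AP-1, rose from 133 and 205 to 455 and 545, a log2 difference of 1.59 (limma, adjusted p = 6e-05). Mafg, a small MAF protein, rose 1.73-fold. That call was lost without control replicate 2, without knockdown replicate 2 and without the mean-variance trend (limma, adjusted p = 0.0708 without the trend). Atf2, Atf7, Fosl2 and Maff had log2 differences of −0.64, −0.51, 0.35 and 0.16, and none passed, though Atf7 did with the GC trend removed (adjusted p = 0.0143).

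**Figure D4:**
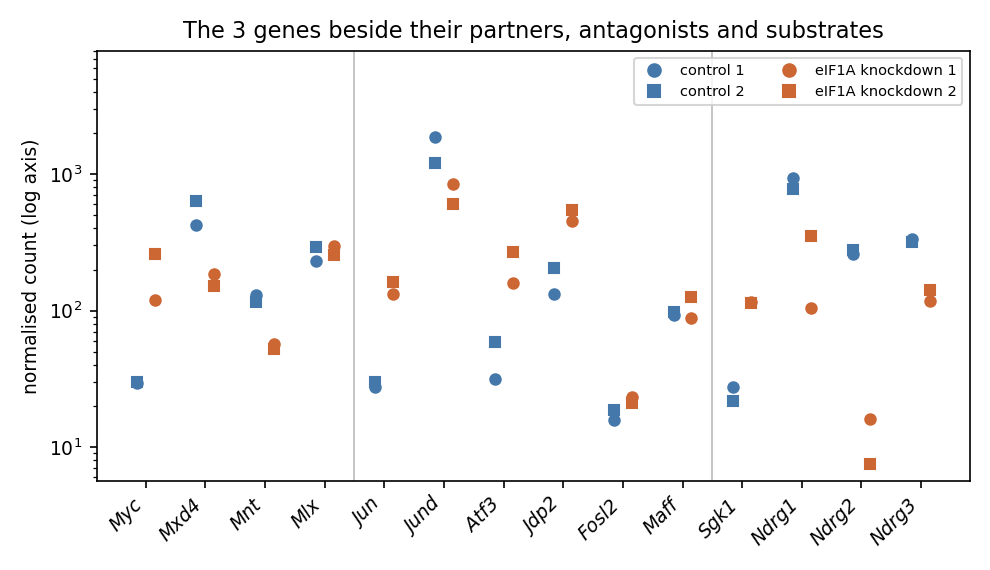
Normalised counts (log axis) in each library of Myc with 3 network genes, Jun with 5 bZIP genes and Sgk1 with 3 NDRG genes; levels are compared between groups and not between genes. Myc, Jun, Atf3, Jdp2 and Sgk1 lie higher in both knockdown libraries, and Mxd4, Mnt, Jund and the 3 NDRG genes lie lower, with Ndrg2 down to 7.47.

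The JNK cascade phosphorylates JUN. On a list of this cascade together with other regulators of JUN, 6 of 12 tested genes fell (50%, against 21.6% of all genes). Another 1 rose (8.33%, against 15.9%) and 5 did not pass. The median was −0.58, and −0.13 with the GC trend removed. Mapk8ip1, which encodes the scaffold JIP1, went from 491 and 440 to 211 and 152 normalised counts (2.59-fold lower, adjusted p = 1.52e-04, and 1.67-fold with the GC trend removed). Dusp10, a phosphatase that switches JNK off, fell 2.50-fold, and Map2k7, the JNK-activating kinase, fell 1.74-fold. Csk, a negative regulator of SRC kinases, fell 1.81-fold. The calls of Map2k7 and Csk were lost at equal totals (adjusted p = 0.111 and 0.0542) and with the GC trend removed. Without a mean-variance trend, at equal totals and with the GC trend removed, 2 members of the list were called lower, and 3 were without knockdown replicate 1.

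Genes known as AP-1 targets were divided. Of 16 tested, 5 rose (31.2%, against 15.9% of all genes), 4 fell (25%, against 21.6%) and 7 did not pass. The median was 0.34, but 0.099 without knockdown replicate 2, 0.58 without knockdown replicate 1 and 0.13 with the GC trend removed. Ccnd1, which encodes cyclin D1, rose from 28.5 and 45.4 to 265 and 253 normalised counts, a log2 difference of 2.81 (limma, adjusted p = 5.1e-07). Epha2, an ephrin receptor, went from 74.8 and 64.1 to 259 and 303 (4.002-fold). Csf1, the macrophage growth factor, rose 2.22-fold, and Ccl2, given above, was also on this list. The 4 lower members were Sqstm1, Tgfb1, Mmp14 and Vim, named after their values were seen, at 1.86-fold, 2.28-fold, 1.68-fold and 1.88-fold. The fall of Tgfb1 was 1.502-fold without control replicate 1, where its call was lost, and 3.45-fold without control replicate 2. With the GC trend removed it was 1.33-fold, and the calls of Tgfb1 and Mmp14 were lost (limma, adjusted p = 0.338 and 0.0628). Those of Sqstm1, Mmp14 and Vim were lost under quantile normalisation. Of the list, 2 were called lower at equal totals, without control replicate 1 or without knockdown replicate 1, 1 under quantile normalisation and 0 without the mean-variance trend.

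Among genes of SGK1 signalling, the 3 NDRG genes tested fell. NDRG1 and NDRG2 are phosphorylated by SGK1, and phosphorylated NDRG1 serves as a readout of the kinase. Ndrg1 had 943 and 782 normalised counts in controls and 105 and 349 in knockdowns (4.46-fold lower, limma, adjusted p = 1.01e-04). Its knockdown libraries lay far apart. The fall was 2.46-fold when knockdown replicate 1 was left out, and 8.12-fold when knockdown replicate 2 was. Ndrg2, given above, had no overlap between groups. Both Ndrg1 and Ndrg2 were also counted among the genes that MYC is known to repress. Ndrg3 went from 334 and 317 to 117 and 143 (2.50-fold lower). Sgk1 itself was higher in both knockdown libraries, the opposite direction to these 3 genes. The mRNA level says nothing of kinase activity, which was not measured.

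Slc9a3r2, which encodes the scaffold NHERF2 that binds SGK1, fell from 1015 and 706 to 296 and 314 (2.77-fold, adjusted p = 5.59e-05), and 1.66-fold with the GC trend removed. Of the 15 genes tested besides Sgk1, 2 rose (13.3%, against 15.9% of all genes) and 5 fell (33.3%, against 21.6%). The median of the 15 was −0.51, but −0.23 without knockdown replicate 2 and −0.16 at equal totals. None was called higher without control replicate 2, without either knockdown replicate or without the mean-variance trend. Rictor, Pdpk1, Nedd4l and Foxo3 were not analysed here.

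Sgk1 is also a classical glucocorticoid target, and the other 7 genes tested from that list did not move as one. Cebpb rose (14.3%, against 15.9% of all genes) and Per1, Ddit4 and Nfkbia fell (42.9%, against 21.6%). Of these, Cebpb, Per1 and Nfkbia were also counted on the immediate early list and are not separate results. The median was −0.44, but −0.15 without control replicate 2 and −0.093 at equal totals. The call of Cebpb was lost without knockdown replicate 2 (limma, adjusted p = 0.113) and without the mean-variance trend (adjusted p = 0.0596), and that of Nfkbia under 11 other settings. Ddit4, an mTORC1 inhibitor, went from 207 and 177 to 94.4 and 76.8 normalised counts (2.23-fold lower, adjusted p = 0.0017), a call lost with the GC trend removed (adjusted p = 0.0583). Tsc22d3, which encodes GILZ, had 129.9 and 94.96 in controls against 136 and 200.4 with the knockdown, and missed the threshold (limma, adjusted p = 0.112; named after its values were seen). It passed at equal totals and without control replicate 1.

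Of kinases and factors that switch on immediate early genes, 1 of 22 rose (4.55%, against 15.9% of all genes). Another 5 fell (22.7%, close to the 21.6% of all genes) and 16 did not pass. Mapk3, which encodes ERK1, fell from 3121 and 2789 to 590 and 474 normalised counts, a log2 difference of −2.48 (limma, adjusted p = 6.42e-08). Rps6ka1, the ERK-activated kinase RSK1, fell 2.33-fold, the adaptor Shc1 2.25-fold and the transcription factor Stat3 2.25-fold. The member that rose, Atf1, a bZIP factor that binds CREs, was named after its values were seen (2.68-fold). With control replicate 1 left out its fold was 1.67 and the call was lost, and with control replicate 2 left out it was 4.30. The call was also lost without knockdown replicate 2, without the mean-variance trend and with the GC trend removed. The median of the list was −0.30, but 0.033 at equal totals.

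AU-rich element binding and deadenylation factors, which set the lifetime of immediate early mRNAs, had 4 of 21 members higher and 17 not passing. The share higher was 19.0%, close to the 15.9% of all genes. No member was called lower by limma (0 of 21, against 21.6% of all genes), edgeR or DESeq2, and 2 were lower at an unadjusted p under 0.05. In 4 other settings 1 member was: without control replicate 2, without knockdown replicate 2, under quantile normalisation and with the GC trend removed. Ybx1, an mRNA-binding protein, rose from 1042 and 1270 to 2824 and 3288 normalised counts (2.65-fold, adjusted p = 5.79e-05). Pabpc1, the poly(A)-binding protein, rose 2.22-fold. Tob2 and Celf1, which recruit deadenylases, rose 1.86-fold and 1.68-fold, and both calls were lost without knockdown replicate 2. The call of Celf1 was also lost without control replicate 1, without the mean-variance trend and with the GC trend removed. Its rise was then, with the GC trend removed, 1.23-fold (limma, adjusted p = 0.388). The median of the list was 0.18, but −0.12 without knockdown replicate 2 and −0.050 with the GC trend removed.

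The genes whose profiles were most like those of the 3 were found by the Euclidean distance between centred log2 values over the 4 libraries, among 3964 other genes with a mean of at least 20. Nearest to Myc were Rrs1, Ddx21, Tsr1, Pde12 and Hspa9, at distances of 0.218 to 0.478. Rrs1, a ribosome assembly factor, had 25.6 and 27.6 normalised counts in controls and 124 and 226 in knockdowns, with knockdown 2 above knockdown 1 as for Myc. Ddx21, an RNA helicase of the nucleolus, had 15.7 and 12.2, then 63.8 and 122. Tsr1, a maturation factor of the small ribosomal subunit, had 10.8 and 9.74, then 50.05 and 72.7.

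Nearest to Jun were Prmt3, Hspa9, Lrrc8d, Sesn2 and Pde12, at 0.124 to 0.241. Prmt3, an arginine methyltransferase of a ribosomal protein, had 41.3 and 39.8 normalised counts in controls and 183 and 228 in knockdowns. Nearest to Sgk1 were Tmem251, Cyr61, Ltv1, Etv4 and Epha2, at 0.189 to 0.265. Etv4, an ETS factor, had 39.4 and 32.5, then 186 and 145. Jun was the 12th nearest gene to Myc, at 0.628, and Sgk1 was the 50th, at 0.919. Sgk1 was the 24th nearest to Jun, at 0.407. In the other direction, Myc was the 60th nearest to Jun and the 163rd nearest to Sgk1, and Jun was the 16th nearest to Sgk1. Over 4 libraries in 2 groups such distances mostly follow the size of the difference between groups.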

How the data were processed

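Bulk MARS-seq counts of 4 libraries were used, 2 of control and 2 of eIF1A knockdown fibroblasts, grouped by sample title. The authors deposited a signal, normalised counts per gene, without stating the factors. Tools listed in the submitters' processing notes are STAR, HTSeq, DESeq2, cutadapt 1.8.3 and bcl2fastq 2.17.1.14, with the build mm10 and no roles. The sources used here give no strand setting, molecular identifiers or gene selection. All values were whole multiples of 1 step per library (100% within 0.01 read), so reads were recovered.

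Values were tested as log2(value + 1) in R 4.3.3 by limma 3.58.1, its prior variance following the mean (trend), for 4605 genes with a mean of at least 5, Benjamini-Hochberg adjusted over all of them at 0.05. Myc, Jun and Sgk1 and the lists were chosen with earlier results of these data known. Some lists share genes, so their counts are not independent of each other. By rule, named genes were the 3 members, the 4 of smallest p in each list, and the 5 nearest profiles to each member. Tested members of the immediate early, AP-1 and MYC network lists were also within the rule. Cell type markers and the genes said to be named with their values known were outside it. The settings tried were pseudocounts of 0.5 and 5, a filter at 20 or none, TMM factors, totals made equal, no trend, a replicate block, each library left out, at least 2-fold, and, on recovered reads, DESeq2 1.42.0 and edgeR 4.0.16. Quantile normalisation and removal of a loess GC trend were added after seeing the data. The fits were also run on simulated data, with the same added spread for every gene and far fewer changed genes than were called here. That run therefore does not bear on the choice of normalisation or trend.

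Symbols were matched to GENCODE M21 (4873 of 4878, 132 through an older symbol). Overlaps and pseudogenes were searched for the 86 genes named by rule, and not for cell type markers or genes named with their values known. An exon of another gene lay on the opposite strand of the last 1000 bases for 12 of the 86. Among them were Ccnd1, Cebpb, Jund, Mxd4, Ndrg1, Prmt3, Stat3 and Tsr1. For Mafg such an exon lay on the same strand. Pseudogenes carry the symbols of Hspa9, Ldha, Ybx1 and Zfp36l1. Counts of these genes are uncertain to that extent.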

Additional observations from a re-analysis of the deposited data

How the results depend on the processing

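Myc, Jun and Sgk1 were higher in knockdown libraries under all 16 settings run. Their log2 differences were 1.96 to 3.08 for Myc, 2.16 to 2.45 for Jun and 2.02 to 2.34 for Sgk1 with 1 library left out. At equal totals Jun was at 2.65 and Sgk1 at 2.52, with the GC trend removed they were at 2.61 and 1.87, and at a pseudocount of 5 Sgk1 was at 2.02. Genes called numbered 1300 higher and 603 lower at equal totals, 453 and 576 at 2-fold or more, 655 lower without the trend, and 438 to 758 higher and 715 to 987 lower with 1 library left out. Of the immediate early genes, 6 to 11 were then called higher and 3 to 6 lower, with a median of 0.34 to 0.63. Those called lower numbered 4 at equal totals and at 2-fold or more, and 3 without the trend and with the GC trend removed. Their median was 0.83 at equal totals, 0.56 with edgeR and 0.37 with the GC trend removed. MYC-activated genes called higher numbered 20 to 31 with 1 library left out and 21 at 2-fold or more, and their median at equal totals was 1.26. Medians that changed sign were those of the MYC network (−0.13 to 0.11 with 1 library left out, below 0 without either control replicate, at −0.03 and −0.13, and without knockdown replicate 2, at −0.12), of genes acting on MYC (0.0225 at equal totals, 0.045 under quantile normalisation, 0.056 with the GC trend removed), of MYC-repressed genes (0.035 with the GC trend removed), of kinases and factors (0.033 at equal totals) and of AU-rich element factors (−0.12 to 0.45 with 1 library left out, the lowest without knockdown replicate 2, and −0.050 with the GC trend removed). The cause was not tested. With the replicate number as a block, 641 genes were higher and 918 lower, and the differences of the 3 members kept their values of 2.52, 2.30 and 2.18. The block ended the calls of Klf6 and Nfkbia among the named genes. Deviations of same-numbered libraries had a correlation of −0.129, and no label says that the numbers mark a shared culture or day. In controls each of the 3 members rests on 27 to 37 reads per library, which limits the precision of their differences.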
